A study of Rattus norvegicus with 12 samples.

Results

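Circular RNAs (circRNAs) made from 4 genes of acetyl-CoA use and fatty acid synthesis, Acly, Fasn, Fads2 and Slc33a1, were followed in 12 rat liver libraries. A circRNA is a closed RNA loop, recognised by sequencing reads that cross the junction that closes it, called the back-splice junction here. In exonic circles, the end of a downstream exon is joined there to the start of an upstream exon. Circles listed as intronic join no exons, and their reads are counted alike. The table entries that name 1 of the 4 genes as host were taken. Entries that name the host by an Ensembl identifier were added where they share a transcript or junction with them. This gave 4 of 6026 host genes, 32 of 21876 entries and 31 of 21068 junctions. Of the 32 entries, 30 named the host by symbol and 2 by identifier. The 4 genes were selected on the read counts of these same libraries, by their differences between the 3 groups and with earlier results known, so those differences are given as a description.

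The libraries came from liver of wild type Wistar rats in 3 groups: 2 libraries from rats with a return of diabetes after sleeve gastrectomy (relapse), 5 from rats after sleeve gastrectomy (SG), and 5 from sham-operated rats (sham). Sleeve gastrectomy resects the greater part of the stomach. All 3 groups shared the diabetes model: a diet with 60% of calories as fat for 4 weeks, then a 35 mg/kg dose of streptozotocin, which kills insulin-producing beta cells, given to rats fasted for 16 h, with glucose above 16.7 mmol/L 3 days later. SG livers were taken 3 months after surgery, and neither the sampling time of the other groups nor the feeding state is stated in the sources used here. The relapse rats also carried the operation, so relapse against SG sets operated rats against operated rats, and relapse against sham differs in both operation and outcome. Nothing in the labels ties each library to its own rat, so a p-value reflects only the spread over these libraries, which may be technical.

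Depth ran from 18176 to 37229 back-splice reads per library, with 18473 in relapse 1 and 37229 in relapse 2. Depth did not differ detectably between groups in an exact two-sided permutation test (adjusted p = 0.619 in each of 3 comparisons; smallest p possible 0.0476 with 2 relapse libraries). Levels are given as RPM, the reads of a gene or junction per 1000000 back-splice reads of its library. A library without a read can still hold a level of 80.6 RPM at the greatest depth and of 165 RPM at the least (3 reads). Of 12 hepatocyte markers, 10 had circRNA reads, with a summed level of 10827 to 11013 RPM in relapse, 11743 to 15926 RPM in SG and 11382 to 18486 RPM in sham. Apoa1 and Ttr were at 0. Of 10 adipocyte markers, 8 were at 0, Adipoq, Plin1 and Lep among them, and Pparg and Cidec together had 7 reads. The summed adipocyte level was 0 to 26.9 RPM in relapse, 0 to 98.3 RPM in SG and 0 to 46.5 RPM in sham. Endothelial markers (6 of 9 with reads) summed to 886 to 1353 RPM in relapse, 473 to 1409 RPM in SG and 275 to 903 RPM in sham. Kupffer cell markers (4 of 9) summed to 108 to 242 RPM in relapse, 34.2 to 934 RPM in SG and 52.1 to 651 RPM in sham, and markers of cholangiocytes (7), pancreas and gut (11) were at 0. Since the hepatocyte markers Apoa1 and Ttr were also at 0, a marker without circRNA reads does not show that its cell type is absent. The hepatocyte sum was below both other groups in both relapse libraries, and its part in the results was not tested. In bulk liver, fewer cells of a type and less RNA per cell cannot be told apart.

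Acly, Fasn and Slc33a1 make, use or carry acetyl-CoA, while Fads2 acts on fatty acids. Acly cleaves citrate exported from mitochondria into cytosolic acetyl-CoA, and Fasn joins acetyl-CoA and malonyl-CoA into palmitate. Fads2 is the desaturase of the entry step of long-chain polyunsaturated fatty acid synthesis, and Slc33a1 carries acetyl-CoA from the cytosol into the endoplasmic reticulum, where it serves protein acetylation. In liver, Acly and Fasn mRNAs are known as targets of insulin and carbohydrate feeding through SREBP-1c and ChREBP. A circRNA level depends on transcription of the host gene, on how the loop is closed and on its stability, so it is not a measure of the mRNA or the enzyme.

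Promoter sequence is shown because circRNAs of Acly, Fasn and Slc33a1 were highest in the mean in relapse and those of Fads2 were not. No promoter window was available for Fasn, and a link between promoters and circRNA levels was not tested. The 250 bases before the annotated gene start are printed for Acly, Fads2 and Slc33a1, 3 of the 4 genes, from RefSeq on build GRCr8, all on the minus strand and written 5′ to 3′. They lie at chr10:85963632-85963881 for Acly, chr1:216172034-216172283 for Fads2 and chr2:150587417-150587666 for Slc33a1. Capitals mark matches on either strand to the GC box GGGCGG or the CCAAT box.
Acly: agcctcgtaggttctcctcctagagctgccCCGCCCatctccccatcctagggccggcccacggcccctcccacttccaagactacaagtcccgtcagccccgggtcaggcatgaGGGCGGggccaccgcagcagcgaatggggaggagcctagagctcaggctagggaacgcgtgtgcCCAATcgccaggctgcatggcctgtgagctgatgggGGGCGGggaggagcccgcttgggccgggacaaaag
Fads2: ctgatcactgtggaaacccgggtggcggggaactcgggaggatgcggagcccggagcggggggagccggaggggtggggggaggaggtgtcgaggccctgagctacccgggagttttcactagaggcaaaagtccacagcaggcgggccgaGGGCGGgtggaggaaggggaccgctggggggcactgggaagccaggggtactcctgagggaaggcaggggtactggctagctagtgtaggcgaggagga
Slc33a1: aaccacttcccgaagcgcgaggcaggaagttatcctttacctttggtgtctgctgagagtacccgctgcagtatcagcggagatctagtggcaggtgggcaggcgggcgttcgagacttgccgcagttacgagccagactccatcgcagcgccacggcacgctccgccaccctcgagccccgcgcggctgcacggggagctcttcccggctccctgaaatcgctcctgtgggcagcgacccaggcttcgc
Acly held 3 GC boxes, starting at -220, -135 and -35 from the gene start, and a CCAAT box at -71. Fads2 held 1 GC box, at -99. Slc33a1 held none of the motifs searched. Of 33469 rat promoter windows of the same length, 30.5% held a GC box and 34.0% a CCAAT box. The E-box CACGTG (5.59% of windows) and the SREBP-type motif TCACNCCAC (0.974%) were searched on both strands and were in none of the 3 windows. These are letter matches and say nothing of binding.

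Acly circRNAs were highest in the relapse livers. They had 2219 and 1155 RPM in relapse, against 614, 491, 269.7, 754 and 582 RPM in SG and 364, 165, 521, 251 and 232 RPM in sham, from 186 reads in all. Both relapse libraries were above every SG and sham library, while SG and sham overlapped. The means were 1687 ± 753 RPM in relapse (SD, n = 2), 542 ± 179 RPM in SG and 307 ± 139 RPM in sham (SD, n = 5 each). The relapse libraries lay farther from each other than relapse 2 lay from the sham mean.

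The log2 fold change of Acly was 2.35 (SE 0.49) for relapse over sham, 1.53 (SE 0.48) for relapse over SG and 0.82 (SE 0.43) for SG over sham. By pooled reads, Acly was 4.84-fold higher in relapse than in sham (95% counting interval 3.21 to 7.43), 2.66-fold higher in relapse than in SG (1.91 to 3.71) and 1.82-fold higher in SG than in sham (1.19 to 2.84). These intervals, like all intervals on reads here, cover counting error only and not the spread between libraries. Of 1337 host genes tested with edgeR's quasi-likelihood test, 2 (0.15%) passed an FDR of 0.05 in relapse over sham, and Acly was the host that was higher (0.0748% of hosts; adjusted p = 0.0135). Since Acly was chosen for this contrast, that p is no independent evidence. Without relapse 1 the log2 fold change was 1.97 and Acly no longer passed (edgeR adjusted p = 0.636), while it passed in the other 21 of 22 alternatives and left-out libraries (adjusted p 0.00625 to 0.0352).

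**Figure D1:**
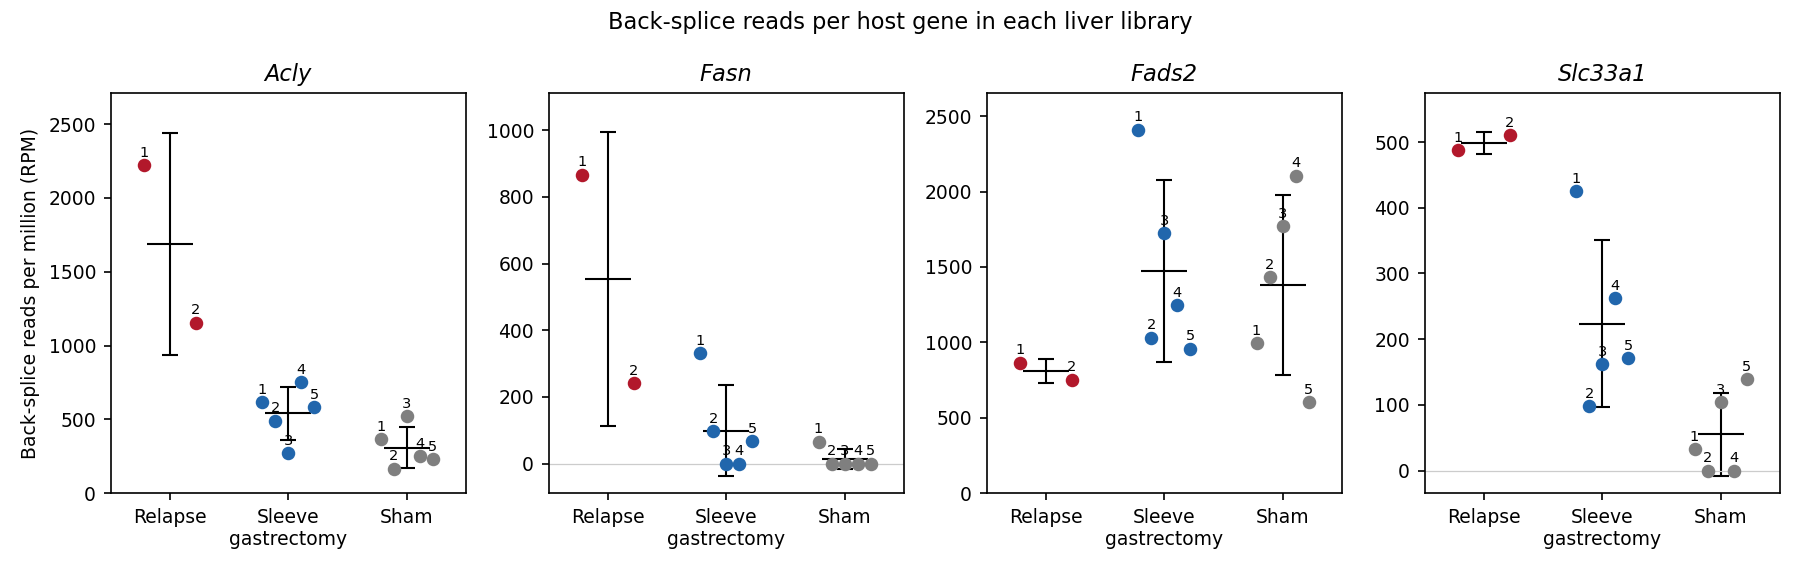
Level of circRNA reads of each host gene in each library, in RPM (linear axis, scaled per gene), for relapse, SG and sham from left to right. Points are libraries, with their numbers, horizontal lines are group means and error bars are SD. Acly lies at 1155 and 2219 RPM in relapse against at most 754 RPM elsewhere, and Fads2 is lowest in the mean in relapse, at 809 RPM.

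Acly gave rise to 13 junctions on the minus strand of chromosome 10 (Rnor_6.0, coordinates as deposited), but a small circle near the end of the gene held most reads. This circle, circRNA430, joins exons 24 and 25 of transcript ENSRNOT00000023447 (chr10:88397108-88397582) and took 140 of the 186 reads (75.3%). It was the only Acly junction with reads in all 12 libraries. Its reads were 31 and 28 in relapse, against 6, 5, 4, 20 and 15 in SG and 11, 3, 9, 3 and 5 in sham. In RPM both relapse libraries, at 1678 and 752, were above every other library. The junction's log2 fold change was 2.06 for relapse over sham, 1.53 for relapse over SG and 0.53 for SG over sham.

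The other Acly junctions together had 10 and 15 reads in relapse, 7, 5, 1, 3 and 2 in SG, and 0, 0, 1, 2 and 0 in sham. They were read in both relapse and all 5 SG libraries but in 2 of 5 sham libraries, and the relapse libraries did not share them. In relapse 2 the exon 12 to 17 circle circRNA3430 (chr10:88410710-88419957) had 11 of its 12 reads, and in relapse 1 the intronic circle ciRNA16 (chr10:88430394-88431210) had 7 of its 9. CircRNA430 accounted for 70.2% of Acly reads in relapse (Wilson 95% interval 59.8 to 79.0%), 73.5% in SG (62.0 to 82.6%) and 91.2% in sham (77.0 to 97.0%). These shares pool the libraries of a group and were not tested. Exon 12 opened 3 of the 12 exonic circles and exon 15 opened another 3, with 17 and 12 reads.

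**Figure D2:**
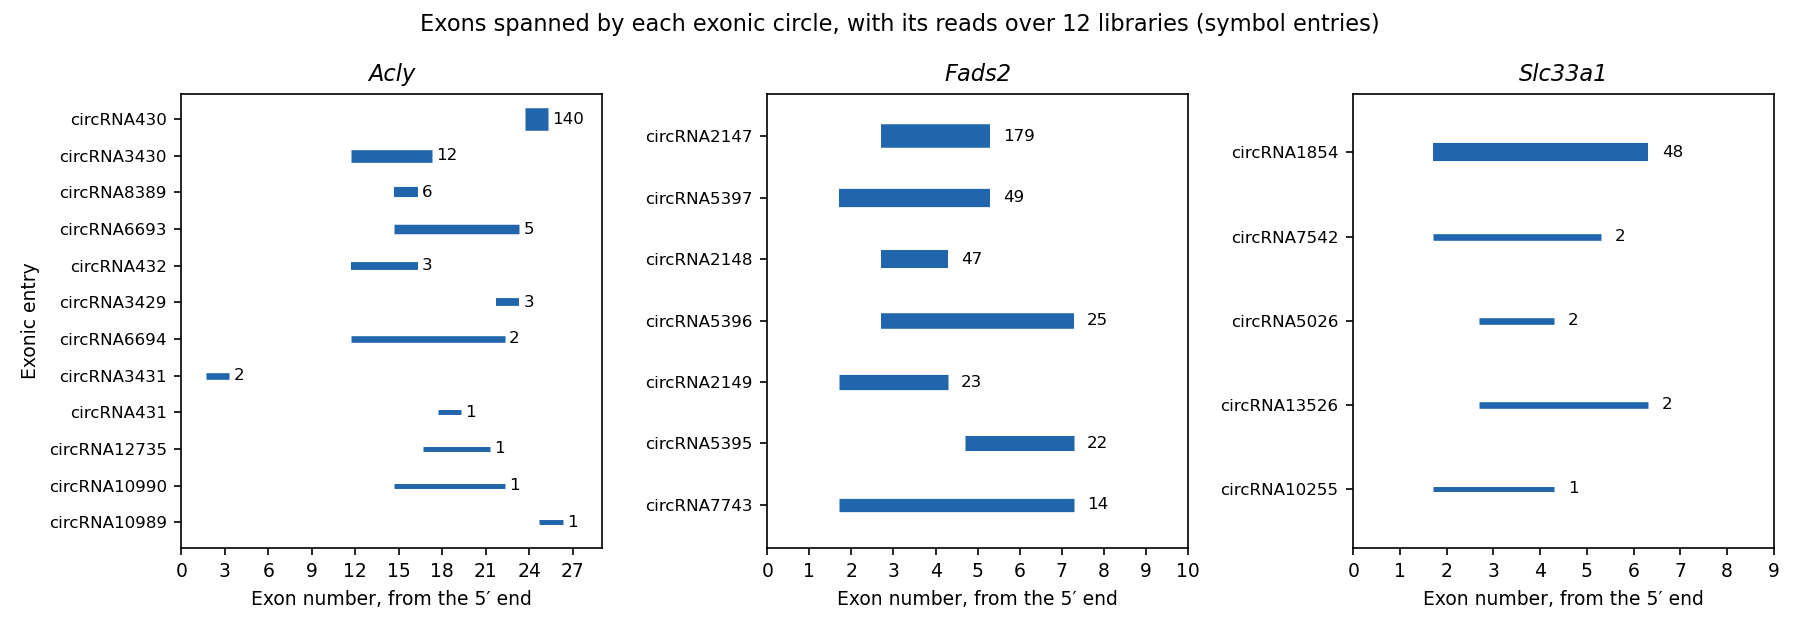
Exons joined by each exonic circRNA of Acly, Fads2 and Slc33a1, drawn from the exon numbers that the deposited table gives (horizontal axis, exon number from the 5′ end). Each bar is a circle named by symbol, thicker with more reads and labelled with its reads over the 12 libraries. Acly reads lie mainly in the exon 24 to 25 circle (140 reads), and Fads2 circles share the exons at which they open and close.

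Fasn circRNAs were scarce outside the relapse livers. Fasn had 16 and 9 reads in relapse, against 7, 2, 0, 0 and 2 in SG and 2, 0, 0, 0 and 0 in sham. In RPM these were 866 and 242 in relapse, 331, 98.3, 0, 0 and 68.5 in SG, and 66.2 in sham 1 with 0 in the other sham libraries. Both relapse libraries were above every sham library, but SG 1 was above relapse 2. Means were 554 ± 442 RPM in relapse (SD, n = 2), 99.5 ± 136 RPM in SG and 13.2 ± 29.6 RPM in sham (SD, n = 5 each). By pooled reads relapse was 24.5-fold above sham (counting interval 6.10 to 213), 4.89-fold above SG (2.32 to 11.0), and SG was 5.01-fold above sham (1.09 to 46.5). With 2 reads in all sham libraries the fold against sham is barely fixed.

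The fitted log2 fold changes of Fasn were 4.55 (SE 1.45) for relapse over sham, 2.39 (SE 1.30) for relapse over SG and 2.17 (SE 1.33) for SG over sham, and none passed the FDR of 0.05. Fasn entered the test through 2 relapse libraries and SG 1, the only libraries at or above the level that the filter asks for, so it was tested only because it was high there. Without relapse 1 the fitted values were 3.60 for relapse over sham and 1.35 for relapse over SG, and without sham 1, the only sham library with reads, they were 6.60 for relapse over sham and 4.24 for SG over sham. Without relapse 2 they were 5.17 for relapse over sham and 3.01 for relapse over SG. With limma-voom they were 3.59 for relapse over sham, 2.52 for relapse over SG and 1.07 for SG over sham.

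Most Fasn reads came from an intronic circle and not from exons. CiRNA188 (chr10:109992564-109992911, minus strand) is listed under the Ensembl identifier ENSRNOG00000045636 and held 30 of the 38 Fasn reads. Its reads were 16 and 6 in relapse, against 2, 2, 0, 0 and 2 in SG and 2, 0, 0, 0 and 0 in sham. All 16 Fasn reads of relapse 1 were in it. In the whole table, counts of 1 read made up 38.1% of the nonzero counts in symbol entries. In identifier and intergenic entries they made up 1.68%. A 0 of ciRNA188 may therefore stand for 1 read, which was not tested. The 4 exonic circles, from exon 42, exon 21, exon 14 and exons 12 to 13, had 1 to 3 reads each, and each was read in a single library, SG 1 or relapse 2. Intronic circles held 78.9% of Fasn reads, against a median of 0.0% over the tested hosts. Identifier entries held the same 78.9%, against a median of 7.58%. A wider share was compared between groups, that of identifier entries together with the intergenic entries, which name no host gene. This share of all back-splice reads was 28.7 ± 1.15% in relapse (SD, n = 2), 28.0 ± 1.78% in SG and 28.4 ± 1.54% in sham (SD, n = 5 each). It did not differ detectably between any 2 groups (exact two-sided permutation test, p = 0.905 for relapse over sham, 0.667 for relapse over SG and 0.683 for SG over sham, each 0.905 after adjustment over 3 comparisons). With 2 relapse libraries the smallest p possible in this permutation test was 0.0476, so the comparisons with relapse could detect little.

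Slc33a1, the acetyl-CoA transporter, had the most even relapse libraries of the 4 genes. Its levels were 487 and 510 RPM in relapse, against 425, 98.3, 162, 262 and 171 RPM in SG and 33.1, 0, 104, 0 and 139 RPM in sham, from 61 reads. Both relapse libraries were above every other library, all 5 SG libraries were above the sham mean, and SG 2 lay within the sham range. Means were 499 ± 16.4 RPM in relapse (SD, n = 2), 224 ± 127 RPM in SG and 55.3 ± 63.4 RPM in sham (SD, n = 5 each). The log2 fold change was 3.02 (SE 1.05) for relapse over sham, 1.10 (SE 0.97) for relapse over SG and 1.91 (SE 0.92) for SG over sham, none past the FDR of 0.05. Without sham 5 it was 3.66 for relapse over sham and 2.54 for SG over sham, and with symbol entries alone, which leaves out the 3 reads of sham 5, it was 3.96 and 2.84. By pooled reads relapse was 9.14-fold above sham (counting interval 3.71 to 27.0) and 2.23-fold above SG (1.27 to 3.93), and SG was 4.10-fold above sham (1.66 to 12.1). The libraries at or above the filter's level were 2 of relapse, 2 of SG and 0 of sham, so the gene entered the test through the groups in which it was high.

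The main Slc33a1 circle joins exons 2 to 6 (circRNA1854, chr2:154520979-154532393, minus strand). The table writes its junction as 2 entries, and the 3 reads of sham 5 stand under the identifier entry circRNA19032, with a start 1 base higher. As for ciRNA188, a 0 in that identifier entry may stand for 1 read. Summed, the junction had 9 and 15 reads in relapse, 7, 1, 2, 8 and 4 in SG, and 0, 0, 2, 0 and 3 in sham, 51 of the gene's 61 reads (83.6%). Its share of the gene's reads was 85.7% in relapse, 81.5% in SG and 83.3% in sham. The other 5 junctions had 1 to 3 reads each. They included the intronic ciRNA468, with 3 reads, all in relapse 2.

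**Figure D3:**
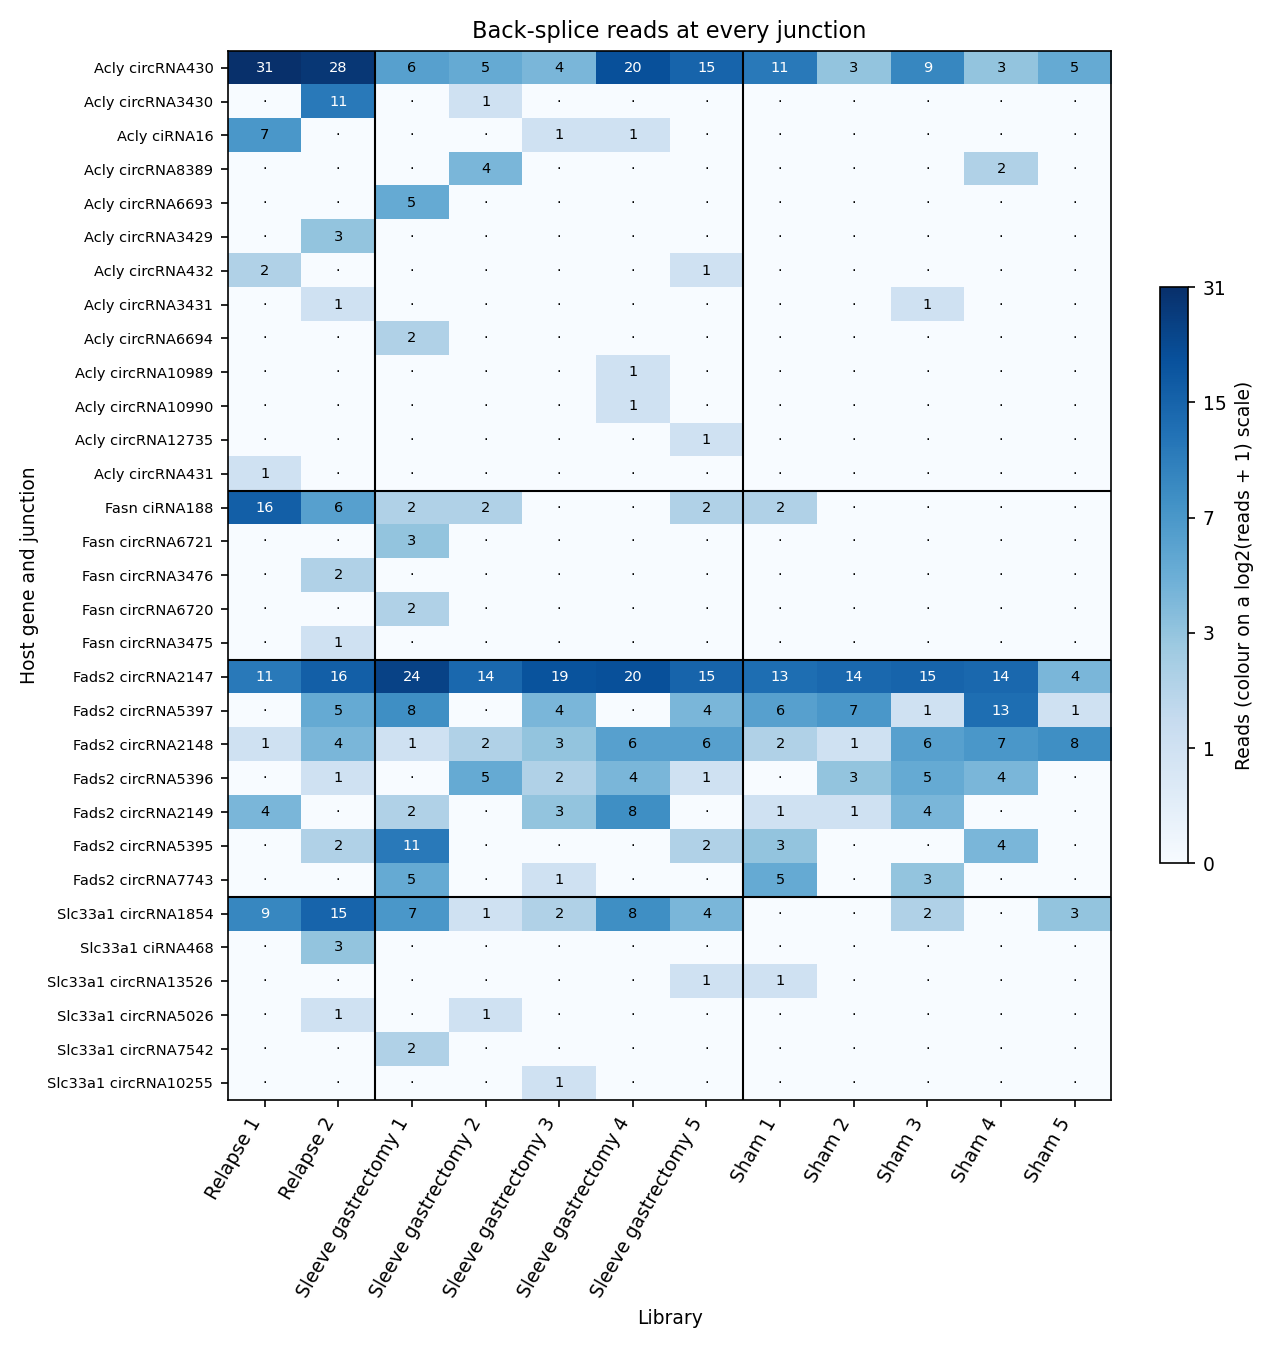
Reads at every back-splice junction of the 4 host genes (vertical axis) in each library (horizontal axis; relapse, SG and sham from left to right); numbers are reads, dots are 0 and the shade follows log2(reads + 1). CircRNA430 of Acly has 31 and 28 reads in relapse against 3 to 20 elsewhere, and ciRNA188 of Fasn has 16 and 6 reads in relapse against at most 2 elsewhere.

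Fads2 circRNAs went the other way in relapse. They had the most reads of the 4 genes in SG and sham, and 359 reads in all. Their levels were 866 and 752 RPM in relapse, against 2410, 1032, 1726, 1245 and 959 RPM in SG and 993, 1430, 1770, 2106 and 604 RPM in sham. Both relapse libraries were below every SG library, but sham 5 was lower than either. Means were 809 ± 80.6 RPM in relapse (SD, n = 2), 1474 ± 603 RPM in SG and 1381 ± 599 RPM in sham (SD, n = 5 each). The log2 fold change was -0.81 (SE 0.43) for relapse over sham, -0.89 (SE 0.43) for relapse over SG and 0.08 (SE 0.31) for SG over sham, none past the FDR of 0.05. By pooled reads the relapse level was 0.594 of that in sham (counting interval 0.414 to 0.838) and 0.557 of that in SG (0.390 to 0.779). The SG over sham value was at 0 within its error, and its sign turned when SG 1, sham 1 or sham 5 was left out.

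Fads2 spread its reads over 7 circles built from few exon ends on the minus strand of chromosome 1. The circles opened at exon 2, 3 or 5 and closed at exon 4, 5 or 7, and 251 of the 359 reads opened at exon 3. The exon 3 to 5 circle, circRNA2147 (chr1:226132714-226139368), had 179 reads (49.9%). Its reads were 11 and 16 in relapse, 24, 14, 19, 20 and 15 in SG, and 13, 14, 15, 14 and 4 in sham. It and the exon 3 to 4 circle circRNA2148 (47 reads) were read in all 12 libraries. In the 121 tested hosts within 1.5 times the reads of Fads2, the leading junction took a median of 74.0% of the reads.

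For the single Fads2 circles, the log2 fold change for relapse over sham was -0.15 (SE 0.53) for circRNA2147 (0.10 when scaled by the authors' SRPBM) and -1.34 (SE 1.27) for circRNA2148. It was -1.65 (SE 1.38) for the exon 2 to 5 circle circRNA5397 and -2.54 (SE 2.21) for the exon 3 to 7 circle circRNA5396, which had 1 read in relapse. Differences between the circles were not tested. Without relapse 2, which held all 5 relapse reads of circRNA5397 and the 1 of circRNA5396, the values were -5.59 and -4.49, and that of circRNA2148 was -2.12. Without relapse 1 they were -0.85 for circRNA5397, -1.88 for circRNA5396 and -0.93 for circRNA2148. CircRNA2147 held 61.4% of Fads2 reads in relapse (Wilson interval 46.6 to 74.3%), 54.1% in SG (46.6 to 61.4%) and 41.4% in sham (33.7 to 49.5%). These pooled shares were not tested. Of the 31 junctions of the 4 genes, 6 were tested: these 4, circRNA430 and circRNA1854. None passed the FDR of 0.05, and neither did any of the 1519 junctions tested with edgeR (0.0% in each comparison). CircRNA430 and circRNA1854 lay above the other group without overlap in relapse over sham (6.19% of junctions) and in relapse over SG (4.74%). Unadjusted edgeR p-values under 0.05 numbered 88 (5.79% of tested junctions) for relapse over sham, 73 (4.81%) for relapse over SG and 59 (3.88%) for SG over sham. DESeq2 called 0 junctions in all 3 comparisons, and limma-voom called 1 for relapse over sham and 0 in the other comparisons. Of the 31 junctions, 14 were read in a single library.

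Side by side, the 3 comparisons give the following for the 4 genes. They share libraries, so they are not independent of each other. In relapse over sham, Acly, Fasn and Slc33a1 did not overlap between groups and were higher, as were 5.31% of all tested hosts, and by log2 fold change they ranked 13, 4 and 6 of 1337. Fads2, at rank 1056, overlapped, while 4.79% of hosts were lower without overlap. In relapse over SG, Acly and Slc33a1 did not overlap and were higher (5.24% of hosts), Fads2 did not overlap and was lower (5.09%), and the ranks were 44 for Acly, 14 for Fasn, 108 for Slc33a1 and 1098 for Fads2. None of the 4 was called in this comparison, in which 1 host was (0.0748%). In SG over sham, none was called, against 0.15% of hosts, and all 4 overlapped (0.449% of hosts were higher and 0.374% lower without overlap). Their ranks there were 147 for Acly, 14 for Fasn, 20 for Slc33a1 and 582 for Fads2. The median log2 fold change over all hosts was -0.08 for relapse over sham, -0.05 for relapse over SG and 3.48e-05 for SG over sham. The contrasts chose the genes, so nothing is read from these counts and ranks.

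**Figure D4:**
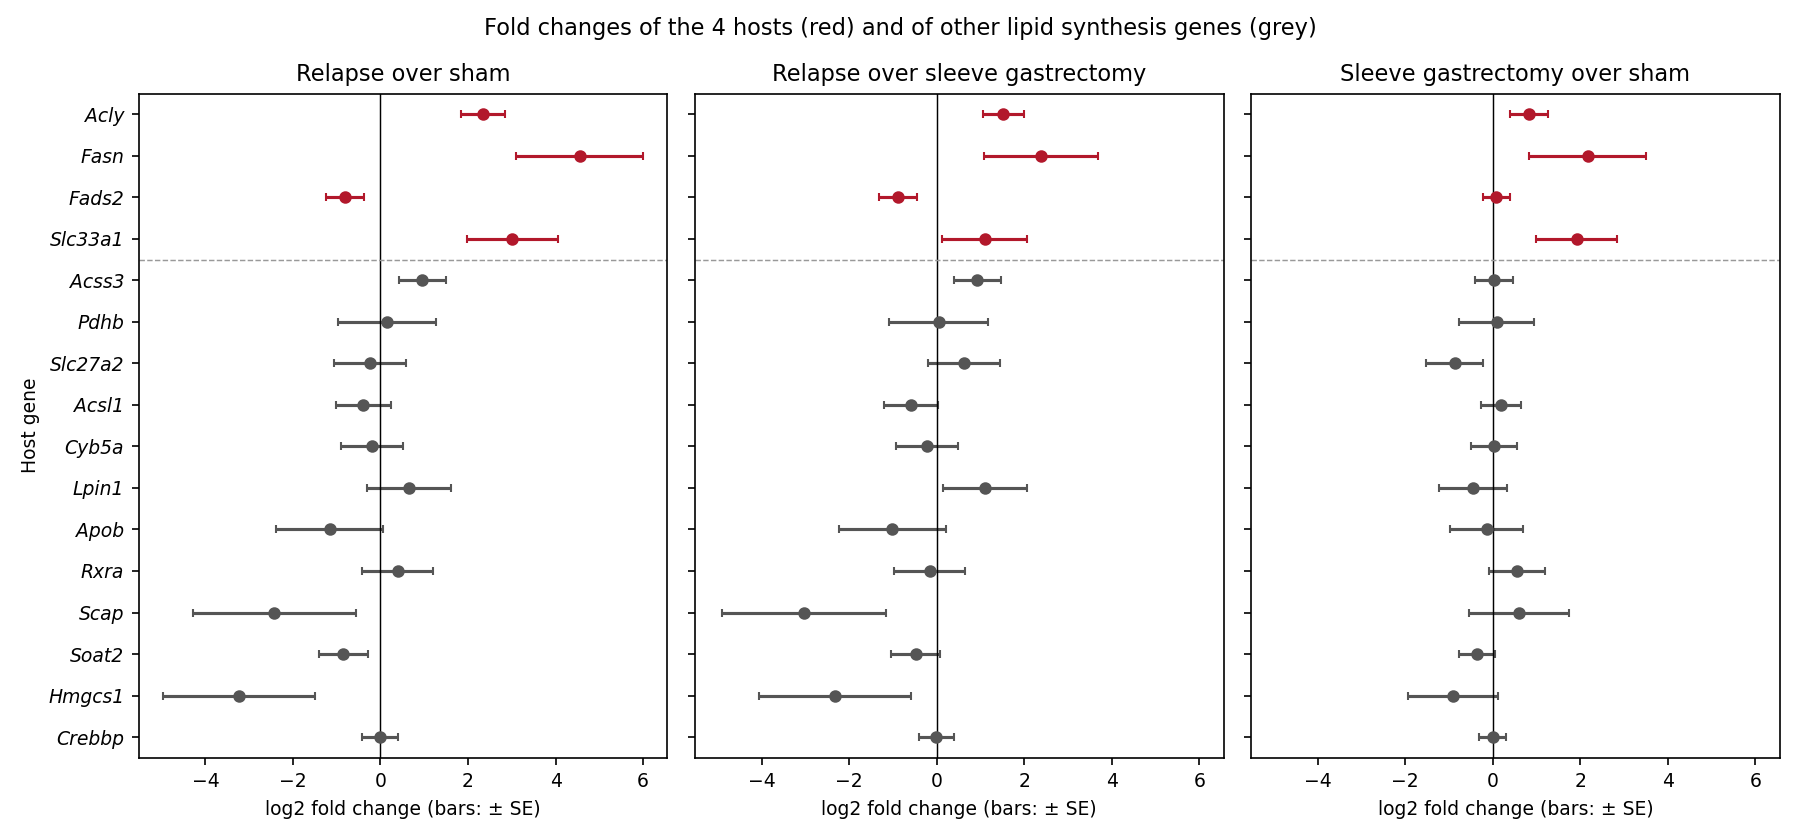
Log2 fold changes with standard errors (horizontal axis) of the 4 host genes (red) and of the pathway list genes named in the text by rule (grey), for the 3 comparisons. In relapse over sham, Fasn is at 4.55, Slc33a1 at 3.02, Acly at 2.35 and Fads2 at -0.81.

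Other genes of acetyl-CoA supply, fatty acid synthesis, desaturation, glycerolipid and cholesterol synthesis, their regulators and acetyl group use were set beside the 4 hosts. Of 158 listed genes outside the 4, 82 had circRNA reads and 18 had enough to be tested. None of the 18 passed the FDR of 0.05 with edgeR in any comparison, and none did with DESeq2, limma-voom or any other alternative or left-out library. An unadjusted edgeR p under 0.05 was found for 0 of the 18 in each comparison, against 5.91% of all tested hosts in relapse over sham, 4.34% in relapse over SG and 3.74% in SG over sham. In relapse over sham 6 of the 18 were above 0 and 12 below (median log2 fold change -0.32), against 614 and 723 of all hosts. In relapse over SG they were 6 and 12 (median -0.29), against 626 and 709, and in SG over sham 9 and 9 (median 0.01), against 669 and 668. Without overlap between groups, 1 of the 18 was higher and 0 lower in relapse over sham (5.31% and 4.79% of hosts), and 2 were higher and 1 lower in relapse over SG (5.24% and 5.09%). The smallest adjusted p of the 18 was 0.806 in relapse over sham, 1 in relapse over SG and 0.997 in SG over sham.

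Of the acetyl-CoA supply list, 2 of 23 genes were tested. Acss3, a mitochondrial acyl-CoA synthetase, averaged 984 ± 62.5 RPM in relapse (SD, n = 2), against 498 ± 259 RPM in SG and 492 ± 296 RPM in sham (SD, n = 5 each). Both relapse libraries, at 940 and 1029 RPM, were above every SG and sham library, the highest of which were at 884 and 930 RPM; of all hosts, 5.24% were higher in relapse than in SG without overlap and 5.31% higher than in sham. The log2 fold change was 0.96 (SE 0.53; edgeR adjusted p = 0.806) for relapse over sham. Pdhb, a subunit of pyruvate dehydrogenase, averaged 230 ± 211 RPM in relapse, 204 ± 144 RPM in SG and 189 ± 144 RPM in sham.

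Of the fatty acid synthesis list, 5 of 22 genes were tested. Slc27a2, an acyl-CoA synthetase and fatty acid transporter, averaged 1025 ± 158 RPM in relapse, 623 ± 596 RPM in SG and 1175 ± 446 RPM in sham. Acsl1, a long-chain acyl-CoA synthetase, averaged 363 ± 284 RPM in relapse, 566 ± 265 RPM in SG and 508 ± 263 RPM in sham. Acaca, the cytosolic acetyl-CoA carboxylase that supplies malonyl-CoA to Fasn, was named after its values were seen. It had 28 reads in the 2 relapse libraries, 22 in the 5 SG libraries and 26 in the 5 sham libraries, and did not pass the test. These sums are not scaled for the number or depth of libraries, so they do not show equal levels. The relapse sum was the largest although it came from the fewest libraries and back-splice reads. Scaled by pooled reads, Acaca was therefore highest in relapse.

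The elongation and desaturation list had 2 of 20 genes tested. Cyb5a, the cytochrome that hands electrons to desaturases such as Fads2, averaged 1420 ± 1590 RPM in relapse, 1459 ± 721 RPM in SG and 1446 ± 463 RPM in sham. Its relapse libraries were at 295 and 2544 RPM and spanned the other groups.

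Among regulators, 3 of 29 genes were tested. Scap, the escort protein of SREBPs, had 1 read in relapse, 21 in SG and 12 in sham, which averaged 13.4 ± 19.0 RPM in relapse, 169 ± 82.0 RPM in SG and 109 ± 118 RPM in sham. Both relapse libraries were below every SG library, as were those of 5.09% of hosts, and the log2 fold change for relapse over SG was -3.03 (SE 1.88; edgeR adjusted p = 1). Rxra, a partner of nuclear receptors, averaged 282 ± 323 RPM in relapse, 347 ± 126 RPM in SG and 227 ± 77.9 RPM in sham.

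The cholesterol, glycerolipid and acetylation lists gave 2 of 22, 3 of 27 and 1 of 15 tested genes. Hmgcs1, the cytosolic synthase that makes HMG-CoA from acetyl-CoA, had 1 read in relapse, 14 in SG and 24 in sham, with a log2 fold change of -3.23 (SE 1.74; edgeR adjusted p = 0.806) for relapse over sham. Soat2, which esterifies cholesterol, averaged 499 ± 92.6 RPM in relapse, 690.2 ± 373 RPM in SG and 905 ± 564 RPM in sham. Lpin1, a phosphatidate phosphatase, averaged 405 ± 345 RPM in relapse, 172 ± 74.8 RPM in SG and 222 ± 200.1 RPM in sham. Apob, the protein of very low density lipoprotein, averaged 108 ± 76.8 RPM in relapse, 196 ± 127 RPM in SG and 211 ± 172 RPM in sham. Crebbp, a histone acetyltransferase that uses nuclear acetyl-CoA, had close means, at 1279 ± 813 RPM in relapse, 1310 ± 525 RPM in SG and 1308 ± 145 RPM in sham.

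Across the 12 libraries, the log2 CPM of Acly was most like those of Ece1 (Pearson r = 0.829), Slc33a1 (r = 0.807) and Fasn (r = 0.797) among 1337 hosts. Fasn was most like Acly (r = 0.797), Ugt2b15 (r = 0.772) and Cabin1 (r = 0.723), and Slc33a1 was most like Slc25a16 (r = 0.831), Acly (r = 0.807) and Zfyve1 (r = 0.790). Fads2 was most like Ammecr1l (r = 0.808), Nr1h3 (r = 0.763) and Dcaf5 (r = 0.740), and its r with the other 3 genes was -0.329 for Acly, -0.264 for Fasn and -0.287 for Slc33a1. These are descriptions over 12 libraries of 3 groups, which share library depth and the high relapse values, and carry no p.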

How the data were processed

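RNA was freed of ribosomal RNA and treated with RNase R, which degrades linear RNA, per the labels' protocols. Per the submitters' processing notes, cutadapt 1.9, FastQC, TopHat2 2.0.10 and Rnor_6.0 were used; how back-splice reads were called is not given in the sources used here. The deposited table holds whole-number counts of back-splice reads per library, which were used, and the authors' SRPBM, a signal that scales each library's counts by 1 factor, which was used in 1 alternative only. All 12 count columns were used (unused per-sample columns: 0). Symbol entries start 1 base lower than identifier entries at the 808 junctions written as both, so their starts may count from 0; coordinates are as deposited. Exon numbers rise along the gene on both strands, so they count from the 5′ end.

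The 21876 entries were summed by junction (21068) and by host gene (6026). Of 1696 identifiers, 1444 were joined to symbols through shared transcripts, junctions or gene records. The 833 intergenic entries stayed out of host sums. The levels in RPM use all back-splice reads of a library. Tests used edgeR 4.0.16 in R 4.3.3 (filterByExpr with minimum count 5 and minimum total 15, TMM, 1 fit over 3 groups, robust quasi-likelihood F-test, Benjamini-Hochberg FDR of 0.05), leaving 1337 hosts and 1519 junctions; p-values were adjusted over all of them. The fit was tested on simulated data with changes put into the SG libraries only and read in SG over sham. The comparisons with relapse were not simulated. Alternatives were DESeq2 1.42.0, limma-voom (limma 3.58.1), other scalings and filters, each comparison's groups alone, symbol entries alone, a replicate block and leaving out each library; SRPBM scaling was added after seeing the data. Named genes are the 4 hosts, called hosts and the 2 most read tested hosts of each of 7 pathway lists, and the 3 hosts most like each of the 4. The 4 hosts and the lists were chosen with earlier results of these data known. 1 gene that the naming rule gives is not reported here. No 2 libraries of a group agreed within sampling noise.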

Additional observations from a re-analysis of the deposited data

Results flagged for a closer look

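In 24 groups of 5 libraries examined for a library far from the others, 2 stood out, and chance flags about 1 in 20 groups. Fasn in the sham group had 66.2 RPM in sham 1 and 0 RPM in the other 4 libraries. The value in sham 1 rests on 2 reads. With the other 4 libraries at 0, any read in sham 1 would have been flagged, so the rate of 1 in 20 does not hold for it. Sham 1 also held 30213 back-splice reads, against 18176 to 21509 in the other sham libraries.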

How the results depend on the processing

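Of 622 log2 fold changes of the 4 genes and their tested junctions under the alternatives, 611 kept their direction and their side of the threshold. Only Acly in relapse over sham passed in the main fit, so all other values kept their side by not passing. The alternatives refit the same counts of genes chosen for their group differences, so this number is no measure of how firm the values are. Acly in relapse over sham was 1.97 without relapse 1 and no longer passed, and 10 values changed sign, all of Fads2 or its circles: Fads2 in SG over sham was -0.15 without SG 1, -0.01 without sham 1 and -0.10 without sham 5 (range over left-out libraries -0.15 to 0.30); circRNA5396 in SG over sham was 0.19 with limma-voom, 0.054 with the replicate block and, with a library left out, -0.53 to 0.092, above 0 without SG 1 or sham 4; circRNA2147 in relapse over sham was 0.10 with SRPBM scaling. In relapse over SG circRNA5397 ran from -4.74 to 0.0084, above 0 without relapse 1, and circRNA2148 was 0.51 with the replicate block, under which its relapse over sham value was -0.0084 (SE 53.0). The cause was not tested. Fasn could not be fitted with a minimum count of 10, with symbol entries alone or without SG 1, nor with 2 groups alone in relapse over sham and SG over sham; Slc33a1 could not with 2 groups alone in SG over sham.

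Hosts past the FDR of 0.05 numbered 2 in relapse over sham, and 1 with a minimum count of 10, with 2 groups alone, with symbol entries alone and with SRPBM scaling; leaving out a library gave 0 (without relapse 1) to 5 (without sham 5). In relapse over SG they numbered 1, 2 with no filter, and 0 with DESeq2, minimum count 10, 2 groups alone, symbol entries alone and SRPBM scaling, with 0 to 1 when a library was left out. In SG over sham they numbered 2, 1 with symbol entries alone, and 0 with DESeq2, minimum count 10, 2 groups alone and SRPBM scaling, with 0 to 2 when a library was left out. Junctions numbered 0 in each comparison. In relapse over sham they numbered 1 with no filter, limma-voom or the replicate block and 0 to 8 when a library was left out; in relapse over SG 2 with no filter or the block and 0 to 9; and in SG over sham 1 with the block and 0 to 2.

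In relapse over sham, RLE scaling, library totals alone, no filter and limma-voom each gave 3 hosts. The hosts called beside Acly changed between these alternatives. The replicate block gave 3 hosts in relapse over sham, 1 in relapse over SG and 2 in SG over sham. The labels do not pair the libraries: 9 correlations of same-numbered libraries ran from -0.0956 to 0.0380, and in 0 of them the own number was best. SRPBM scaling moved the median log2 fold change of all hosts by 0.34 in relapse over sham, 0.16 in relapse over SG and 0.17 in SG over sham. The share of hosts above 0 became 62.9%, 55.0% and 63.1%, against 45.9%, 46.8% and 50.0% with TMM. The share of reads in identifier and intergenic entries together was also compared with a library left out. Its difference ran from -0.536 to 1.09 percentage points in relapse over sham, -0.0996 to 1.53 in relapse over SG and -1.05 to 0.247 in SG over sham. It changed sign without relapse 1 (-0.536) or sham 1 (-0.339) in relapse over sham. The sign also changed without relapse 1 (-0.0996) in relapse over SG and without SG 3 (0.247) in SG over sham. Depth limits Fasn and Slc33a1 most, with 38 and 61 reads in 12 libraries.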

Other observations

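Among lipid genes with too few reads to test, Srebf1, the gene of SREBP-1, had 5 reads in relapse, 9 in SG and 2 in sham, and Me1, the malic enzyme that makes NADPH for fatty acid synthesis, had 7 reads in relapse, 9 in SG and 10 in sham. Scd, the stearoyl-CoA desaturase, had 3 reads in relapse, 1 in SG and 0 in sham, and Fads1, the desaturase that follows Fads2, had 0 reads in relapse, 3 in SG and 4 in sham. The reads are sums over 2 relapse, 5 SG and 5 sham libraries. They are not scaled for depth, so they do not compare levels between groups. These genes were chosen after their values were seen.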
